A study of Mus musculus with 5 samples.

Results

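The collagen genes were the 44 genes whose symbol reads Col, a number, a and a number, out of 32285 features listed for the T cell libraries and 54987 listed for the whole-tumor libraries. All 44 carried the same gene identifier in both lists. The study asked how 4T1 tumors that respond to doxorubicin (DOX) differ in their cells from tumors that do not. 4T1 is a mouse mammary cancer line, and DOX is a chemotherapy drug that damages DNA. Tumors grew in the mammary fat pad of female BALB/c mice, 12 weeks old per the labels. DOX was given intravenously at 5 mg/kg, 3 times, 3 days apart, and control mice received saline. Droplet scRNA-Seq gave 5 libraries, 1 per group: whole tumor labelled control (saline), sensitive (DOX) and resistant (DOX), and T cells enriched from tumors labelled sensitive (DOX) and resistant (DOX). Each T cell library combined T cells from 3 tumors, after an enzyme digest of the tissue and magnetic depletion of other immune cells and of cells marked by CD90.1, so fibroblasts, cancer cells and macrophages in these 2 libraries are cells that the depletion left behind. The whole-tumor libraries titled resistant and control both have a source field that names a sensitive tumor, so libraries are called by their title throughout.

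Collagens are proteins of the extracellular matrix in which 3 chains wind around each other into a triple helix. The helix needs a glycine at 1 residue in 3, so a collagen coding sequence repeats a glycine codon as 1 codon in 3 over long stretches. Fibrillar collagens (types I, II, III, V, XI, XXIV and XXVII) pack into the tensile fibrils of connective tissue. Type IV forms the network of basement membranes, type VI forms beaded filaments around cells, types XII and XIV sit on the surface of fibrils, type VIII forms short-chain networks, type VII anchors epithelial basement membranes, and types XV and XVIII are multiplexins of basement membrane zones. Fibroblasts make most of the collagen of a tumor. Some of them carry the contractile proteins of smooth muscle, Acta2 and Tagln, and others carry Pi16, a mark of fibroblasts found around vessels and in connective tissue sheets.

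The repeat is shown here for 9 genes that the results below turn on, because it is the feature that makes a gene a collagen and the length of its unbroken run sets the fibrillar family apart from the others. Each sequence is a piece of coding exon of 54 bases, read 5′ to 3′ on the coding strand of GRCm38 with the GENCODE annotation. Capitals mark the glycine codon (GGN) that opens each triplet of codons, and a further glycine codon inside a triplet is left in lower case. For Col1a1 it is chr11:94939904-94939957 (plus strand, exon 8), for Col1a2 chr6:4515481-4515534 (plus, exon 8), for Col3a1 chr1:45325360-45325413 (plus, exon 6), for Col4a1 chr8:11245211-11245264 (minus, exon 7), for Col6a5 chr9:105918186-105918239 (minus, exon 13), for Col12a1 chr9:79612916-79612969 (minus, exon 57) and for Col14a1 chr15:55472927-55472980 (plus, exon 39), and each of these 7 is a whole exon. For Col4a2 it is chr8:11429447-11429500 (plus) within exon 29 and for Col8a1 chr16:57628030-57628083 (minus) within exon 4.
Col1a1: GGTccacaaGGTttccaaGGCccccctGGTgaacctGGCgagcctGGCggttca
Col1a2: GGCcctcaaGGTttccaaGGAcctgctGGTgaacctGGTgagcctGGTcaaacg
Col3a1: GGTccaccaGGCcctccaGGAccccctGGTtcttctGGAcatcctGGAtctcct
Col4a1: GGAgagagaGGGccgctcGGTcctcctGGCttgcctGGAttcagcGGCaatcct
Col4a2: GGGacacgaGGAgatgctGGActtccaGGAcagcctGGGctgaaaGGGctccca
Col6a5: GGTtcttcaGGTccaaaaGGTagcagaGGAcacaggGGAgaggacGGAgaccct
Col8a1: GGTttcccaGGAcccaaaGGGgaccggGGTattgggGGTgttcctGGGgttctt
Col12a1: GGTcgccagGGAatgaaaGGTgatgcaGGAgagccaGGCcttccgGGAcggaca
Col14a1: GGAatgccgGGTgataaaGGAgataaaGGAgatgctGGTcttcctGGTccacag

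All 44 members held a run of at least 5 such triplets. The longest unbroken run was 338 triplets in Col1a1, 339 in Col1a2 and 344 in Col3a1, and over the 11 fibrillar genes it ranged from 216 to 344, while it was 113 or below in each of the other families. In Col4a1 the longest run was 40 triplets and in Col4a2 it was 66, with the repeat split into 22 and 24 runs. In Col12a1 and Col14a1 the longest run was 32 triplets in each, and the runs made up 8.12% and 13.8% of the coding bases, against 73.2% in Col1a1. Coding exons of exactly 54 bases numbered 21 to 33 in fibrillar genes, 1 to 3 in type IV genes and 0 in the 3 short-chain genes.

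Several members lie side by side in the genome. Col4a1 (chr8:11198423-11312826, minus strand) and Col4a2 (chr8:11312805-11449287, plus strand) are transcribed away from each other, and their gene models share 22 bases at chr8:11312805-11312826, shown because both genes start there: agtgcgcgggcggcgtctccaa on the plus strand. Col3a1 and Col5a2 lie 24614 bases apart on chromosome 1 with their 3′ ends towards each other, and Col6a6, Col6a5 and Col6a4 follow each other on chromosome 9 with 27917 and 28810 bases between them. In 38 RefSeq promoters of 35 members (GRCm38.p6, 250 bases before to 50 after the start), the letters CCAAT on either strand were found in 13 (34.2%), against 37.4% of all 32851 promoters. The letters TATAAA were found in 5 (13.2%), Col3a1 among them, against 13.6% of all.

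Counts are unique molecular identifiers (UMIs), each standing for 1 captured 3′ end of a transcript, so levels were not divided by gene length. Levels are given as CPM, the UMIs of a gene per 1000000 UMIs summed over the cells of a class. With 1 library per group no test could be made. Intervals are exact 95% intervals (Poisson for CPM, Clopper-Pearson for shares, conditional binomial for ratios) that cover counting error only, and cells are not replicates. The sensitive T cell library held 3459 kept cells of 3949 barcodes and the resistant one 3166 of 6116, with 31690845 and 35908799 UMIs over all barcodes. The whole-tumor libraries held 263 to 488 kept cells. Over all barcodes, the median mitochondrial share was 2.47% of UMIs in the sensitive T cell library and 8.95% in the resistant one. Its part in the differences between the 2 libraries was not tested beyond a looser limit of 20%, given at the end. The 2 T cell libraries shared 31 barcodes, and other pairs of libraries shared 0 to 4.

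Clusters were rebuilt here without the collagen genes and named from marker genes. Fibroblast-like cells of the sensitive T cell library numbered 843, against 634 in the resistant one, with Dcn at 7005 and 6349 CPM and Pdgfra at 213 and 181 CPM. By gate, a contractile fibroblast had at least 2 UMIs of Acta2 and of Tagln and fewer than 2 of Pi16, and a Pi16 fibroblast had at least 2 UMIs of Pi16 without the contractile pair. Contractile fibroblasts numbered 57 and 24, Pi16 fibroblasts 635 and 535, cells that passed both gates 48 and 55, and cells that passed neither 103 and 20. Median UMIs per cell were 29067 and 29428 in the contractile class, 12737 and 12841 in the Pi16 class and 6887 and 9558 in the class with neither. A cell with more UMIs passes a gate more easily, and the gates took in 9 and 5 cells at exactly 2 UMIs of the scarcer contractile gene while 17 and 7 cells stopped at 1. Genes that the gates did not use separated the classes too. Myl9, a myosin light chain of contractile cells, was at 373 and 270 CPM in contractile against 11.6 and 8.16 CPM in Pi16 fibroblasts. Clec3b, a marker of Pi16 fibroblasts, was at 8.60 and 16.3 CPM against 4271 and 3911 CPM.

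Collagen transcripts made up 3.31% of all UMIs of fibroblast-like cells in the sensitive T cell library (450066 of 13586139) and 2.98% in the resistant one (322114 of 10820061). Single fibroblast-like cells ranged from 0% to 13.0% with a median of 2.69% in the sensitive library, and from 0% to 18.0% with a median of 2.43% in the resistant one. By class, in the order sensitive and resistant, the share was 2.41% and 2.63% in contractile fibroblasts, 3.46% and 2.93% in Pi16 fibroblasts, 3.93% and 3.33% in cells with both, and 2.88% and 2.41% in cells with neither. Cells with both programs thus held the highest share in each library. Cancer cells held 0.0628% and 0.0611%, and macrophages 0.00612% and 0.00453%. T or NK cells of the same libraries, in which chains of types I and III serve as background, held 0.00781% and 0.00329%, and neutrophils 0.0118% and 0.00315%. The macrophage share was 0.784 times that of T or NK cells in the sensitive library (interval 0.654 to 0.935) and 1.37 times in the resistant one (1.10 to 1.71), so over all members it lay near this background. The 9 and 8 endothelial cells held 1.26% and 0.795%.

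**Figure D1:**
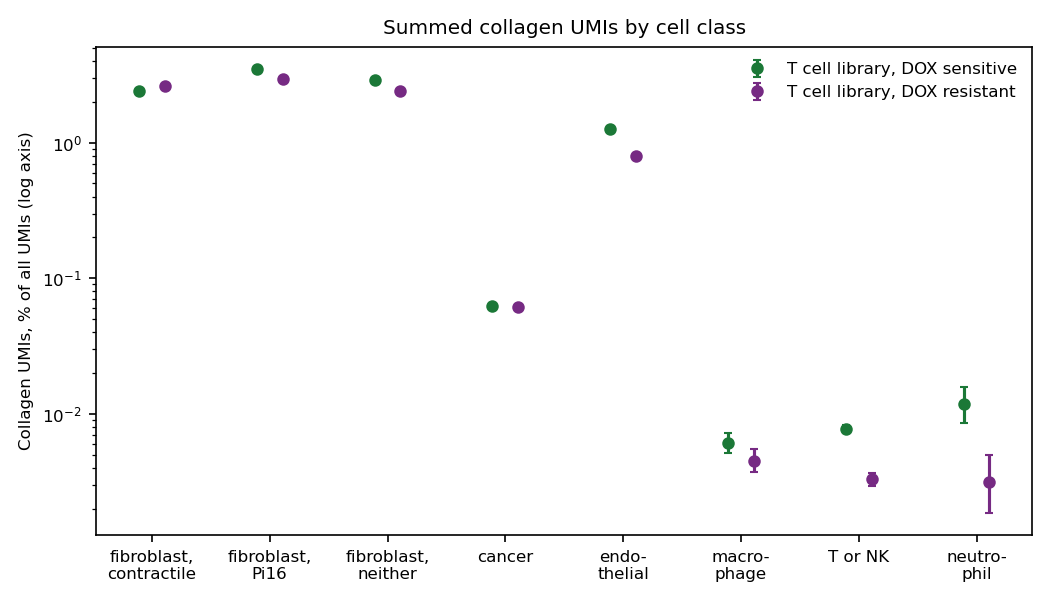
Collagen share of all UMIs (percent, log axis) by cell class in the 2 T cell libraries, with exact 95% intervals that cover counting error. The 3 fibroblast classes shown sit between 2.41% and 3.46%, cancer cells near 0.06%, and macrophages, T or NK cells and neutrophils at 0.0118% or below.

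Of the 44 members, 27 had at least 50 UMIs over the fibroblast-like cells of both T cell libraries. Another 12 had 1 to 49 UMIs there: Col2a1, Col4a3, Col4a4, Col4a6, Col6a4, Col9a2, Col9a3, Col11a2, Col13a1, Col17a1, Col20a1 and Col22a1. The other 5, Col9a1, Col10a1, Col19a1, Col25a1 and Col26a1, had 0, and 3 of these (Col19a1, Col25a1 and Col26a1) had 0 in every kept cell of the T cell libraries. The 3 chains of types I and III supplied most of the fibroblast signal: Col1a1, Col1a2 and Col3a1 together held 76.7% of collagen UMIs in sensitive and 79.0% in resistant fibroblast-like cells. The same 3 genes held 2.05% and 1.78% of collagen UMIs in cancer cells.

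**Figure D2:**
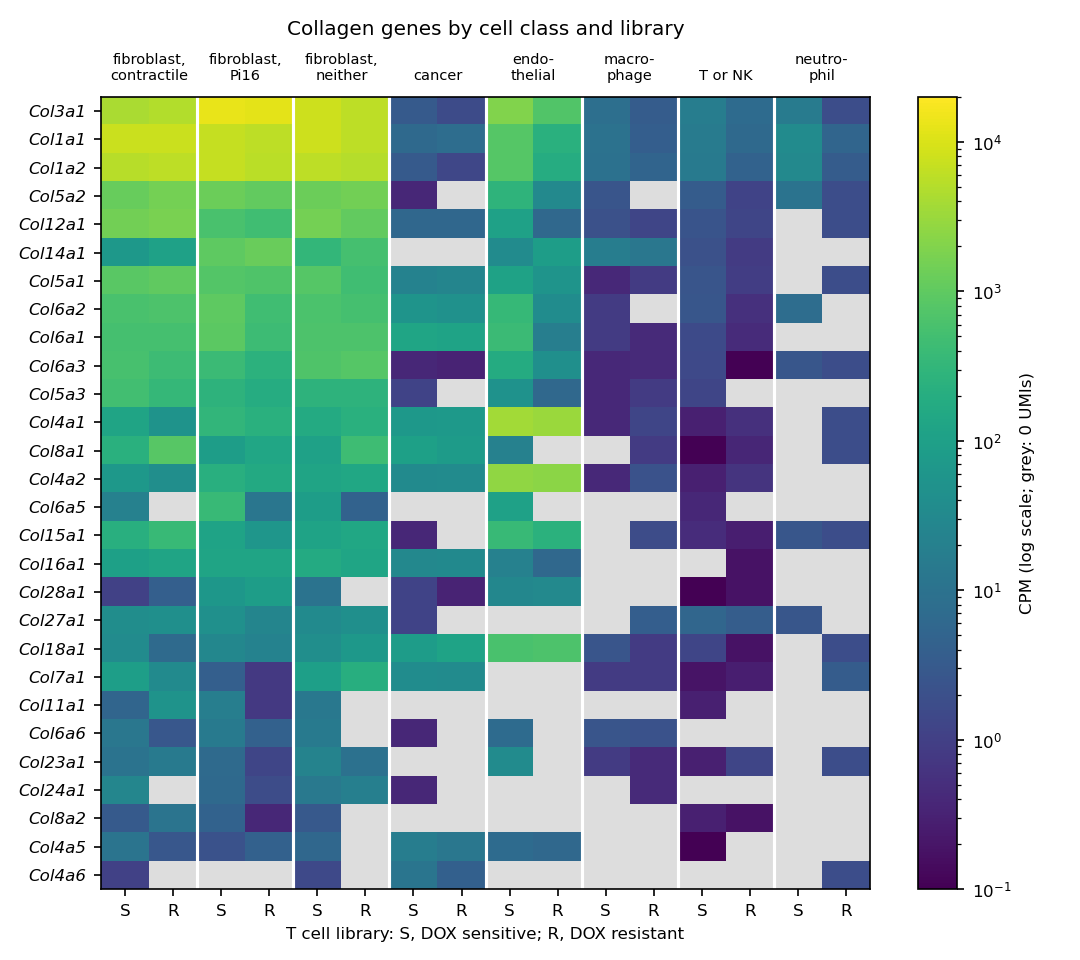
Level in CPM (color, log scale) of the 27 members with at least 50 UMIs in fibroblast-like cells, and of Col4a6, in 8 cell classes of the sensitive (S) and resistant (R) T cell libraries. Grey marks 0 UMIs. Fibrillar members fill the fibroblast columns, while Col4a1, Col4a2 and Col18a1 are highest in endothelial cells.

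Among the fibrillar genes, Col3a1 (the type III chain of pliable tissues) was highest in Pi16 fibroblasts, with 13079 CPM (sensitive) and 12007 CPM (resistant). It was at 4340 and 4835 CPM in contractile fibroblasts and at 7842 and 5820 CPM in cells with neither. The contractile level was 0.332 times the Pi16 level in the sensitive library (interval 0.324 to 0.339) and 0.403 times in the resistant one (0.389 to 0.416). Col1a1 (the major chain of type I) was at 7511 and 7658 CPM in contractile, 6853 and 5891 CPM in Pi16 and 7754 and 5815 CPM in cells with neither. Its contractile over Pi16 ratio was 1.10 (1.08 to 1.12) and 1.30 (1.26 to 1.34). Cells that passed both gates, left out of this ratio, held 16104 Col1a1 UMIs of 1532744 in all (sensitive) and 20480 of 2148974 (resistant). Contractile fibroblasts held 13973 of 1860409 and 5639 of 736326. Col1a2 (the partner chain of type I) was at 5424 and 5832 CPM in contractile and 6972 and 5704 CPM in Pi16 fibroblasts, a ratio of 0.778 (0.762 to 0.795) and 1.02 (0.991 to 1.06). The make-up of the fibrillar message therefore differed between the classes. There were 1.73 and 1.58 Col1a1 UMIs for each Col3a1 UMI in contractile fibroblasts and 0.524 and 0.491 in Pi16 fibroblasts. There were 1.38 and 1.31 Col1a1 UMIs for each Col1a2 UMI in contractile fibroblasts and 0.983 and 1.03 in Pi16 fibroblasts.

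Col5a1, Col5a2 and Col5a3 encode the type V chains, which join type I fibrils. Col5a3 was 1.82 times higher in contractile than in Pi16 fibroblasts in each library (intervals 1.69 to 1.97 and 1.58 to 2.08), with 498 against 273 CPM (sensitive) and 346 against 191 CPM (resistant). Col5a1 was 1.15 and 1.47 times higher in contractile cells, and in the resistant library 1 contractile cell held 31.2% of its UMIs. Col5a2 stood at 1200 against 1290 CPM in the sensitive library (ratio 0.930, 0.889 to 0.974) and at 1525 against 1043 CPM in the resistant library (1.46, 1.37 to 1.56), so its direction differed between the libraries. The minor fibrillar genes were scarce. Col27a1 was at 40.3 and 43.5 CPM in contractile and 46.9 and 26.0 CPM in Pi16 fibroblasts, Col24a1 at 27.4 and 0 CPM against 6.44 and 1.68 CPM, and Col11a1 at 5.38 and 51.6 CPM against 18.4 and 0.777 CPM.

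A member was counted as apart between contractile and Pi16 fibroblasts when it had at least 50 UMIs over both classes and a ratio of at least 2, or at most 0.5, in both libraries. Of 20 members past that minimum, 2 were higher in contractile fibroblasts, Col8a1 and Col12a1, where 3.97% of all 9049 genes were. The 6 that were lower were Col3a1, Col4a1, Col4a2, Col6a5, Col14a1 and Col28a1, where 8.19% of all genes were. Of these calls, that of Col3a1 was lost with cells weighted equally, with gates set after thinning and with cells of both programs counted as contractile, and that of Col4a1 with cells weighted equally. The median ratio over the members past the minimum in a library was 0.860 over 25 members (sensitive) and 1.27 over 20 (resistant), beside 0.951 and 0.983 over all genes.

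Col12a1 and Col14a1, which encode the related fibril-surface collagens XII and XIV, ran in opposite directions. Col12a1 was at 1479 and 1742 CPM in contractile, 600 and 470 CPM in Pi16 and 1574 and 1045 CPM in cells with neither. It was 2.47 (2.35 to 2.58) and 3.70 (3.47 to 3.95) times higher in contractile than in Pi16 fibroblasts. Col14a1 was at 66.7 and 107 CPM in contractile, 986 and 1205 CPM in Pi16 and 328 and 542 CPM in cells with neither. Its contractile level was 0.0676 (0.0562 to 0.0807) and 0.0891 (0.0704 to 0.111) times its Pi16 level. The contrast held at equal depth: with each cell thinned to 1000 UMIs, Col14a1 was seen in 8.93% and 12.5% of contractile and in 60.0% and 70.0% of Pi16 fibroblasts, while Col12a1 was seen in 60.7% and 70.8% against 26.7% and 28.8%. Before thinning, in the same cells, Col14a1 was seen in 53.6% and 66.7% against 95.9% and 98.3%, and Col12a1 in 92.9% and 95.8% against 63.9% and 76.2%. Thinning left out 1 of 57 contractile and 3 of 635 Pi16 fibroblasts of the sensitive library, and 0 of 24 and 1 of 535 of the resistant one. In T or NK cells, thinned alike, Col14a1 was seen in 0.0491% and 0% and Col12a1 in 0.393% and 0.209%. Cells that passed both gates, left out of these ratios, held 579 and 725 Col14a1 UMIs, against 124 and 79 in contractile fibroblasts. The total UMIs were 1532744 and 2148974 in cells with both, against 1860409 and 736326 in contractile fibroblasts. The low Col14a1 level thus holds for contractile cells without Pi16.

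Col8a1, a short-chain collagen of vessel walls, was at 235 and 837 CPM in contractile and at 87.8 and 140 CPM in Pi16 fibroblasts, a ratio of 2.68 (2.37 to 3.01) and 5.97 (5.40 to 6.60). Its partner gene Col8a2 had 71 and 30 UMIs over all fibroblast-like cells, against 2119 and 3457 of Col8a1. Of these Col8a1 UMIs, 760 and 1665 lay in cells that passed both gates, against 437 and 616 in contractile fibroblasts. Col15a1, the multiplexin of the outer basement membrane, was at 223 and 373 CPM in contractile and 122 and 60.1 CPM in Pi16 fibroblasts. Its ratio of 1.83 in the sensitive library was short of 2-fold and 6.22 in the resistant one was past it, with 1 contractile cell holding 24.8% and 25.8% of its UMIs. Col7a1 (the anchoring fibril chain) was at 91.9 and 34.0 CPM in contractile against 3.95 and 0.777 CPM in Pi16 fibroblasts, with 25 and 6 UMIs in the resistant library, under the minimum. Col16a1, a fibril-associated collagen, was at 102 and 124 CPM in contractile and 127 and 124 CPM in Pi16 fibroblasts.

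The type IV chains Col4a1 and Col4a2 were both lower in contractile fibroblasts. Col4a1 was at 126 and 51.6 CPM in contractile against 310 and 227 CPM in Pi16 fibroblasts (0.406 and 0.227 times), and Col4a2 at 66.7 and 40.7 CPM against 220 and 165 CPM (0.303 and 0.246 times). In contractile fibroblasts 1 cell held 25.2% and 28.9% of the Col4a1 UMIs. In endothelial cells Col4a1 reached 3675 and 3196 CPM and Col4a2 2656 and 2366 CPM, from 9 and 8 cells. For each Col4a2 UMI there were 1.41 and 1.37 Col4a1 UMIs in Pi16 fibroblasts, 1.89 (1.51 to 2.37) and 1.27 (0.764 to 2.12) in contractile fibroblasts, and 1.38 and 1.35 in endothelial cells. In cancer cells there were 1.98 (1.52 to 2.59) and 2.01 (1.59 to 2.56). Col4a5 had 49 and 44 UMIs in all fibroblast-like cells, or 3.61 and 4.07 CPM.

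Type VI collagen is built from the chains of Col6a1 and Col6a2 and one more, which Col6a3, Col6a4, Col6a5 or Col6a6 encodes. Col6a3 was higher in contractile than in Pi16 fibroblasts in both libraries, at 564 against 408 CPM and at 421 against 261 CPM (1.38 and 1.61 times). Col6a1 was at 551 against 929 CPM (sensitive) and 541 against 435 CPM (resistant), and Col6a2 at 594 against 985 CPM and 655 against 479 CPM. Both genes thus stood lower in contractile fibroblasts of one library and higher in those of the other. Their contractile levels were close in the 2 libraries and their Pi16 levels were not. Cluster 15, described with the libraries, gave 115 of 635 Pi16 fibroblasts of the sensitive library and 6 of 535 of the resistant one. In clusters 3 and 4, Pi16 fibroblasts for the most part, Col6a1 was 1.34 and 1.69 times and Col6a2 1.39 and 1.81 times higher in the sensitive library. The part of cluster 15 in these levels was not tested. Col6a5 had 39 UMIs in contractile and 3318 in Pi16 fibroblasts of the sensitive library (0.0559 times, 0.0397 to 0.0766). In the resistant library it had 0 UMIs in contractile and 95 in Pi16 fibroblasts, a ratio of at most 0.331 with the 0 read as a floor of 3 counts over the class. Cells that passed both gates, left out of these ratios, held 250 and 10 Col6a5 UMIs. Col6a6 was at 12.9 and 2.72 CPM against 15.6 and 4.40 CPM. Col28a1, a small collagen with domains like those of type VI, was at 1.08 and 4.07 CPM against 64.5 and 91.0 CPM, from 2 and 3 UMIs in contractile fibroblasts (0.0167, 0.00201 to 0.0605, and 0.0448, 0.00921 to 0.131). Cells that passed both gates, left out of these ratios, held 45 and 17 Col28a1 UMIs.

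**Figure D3:**
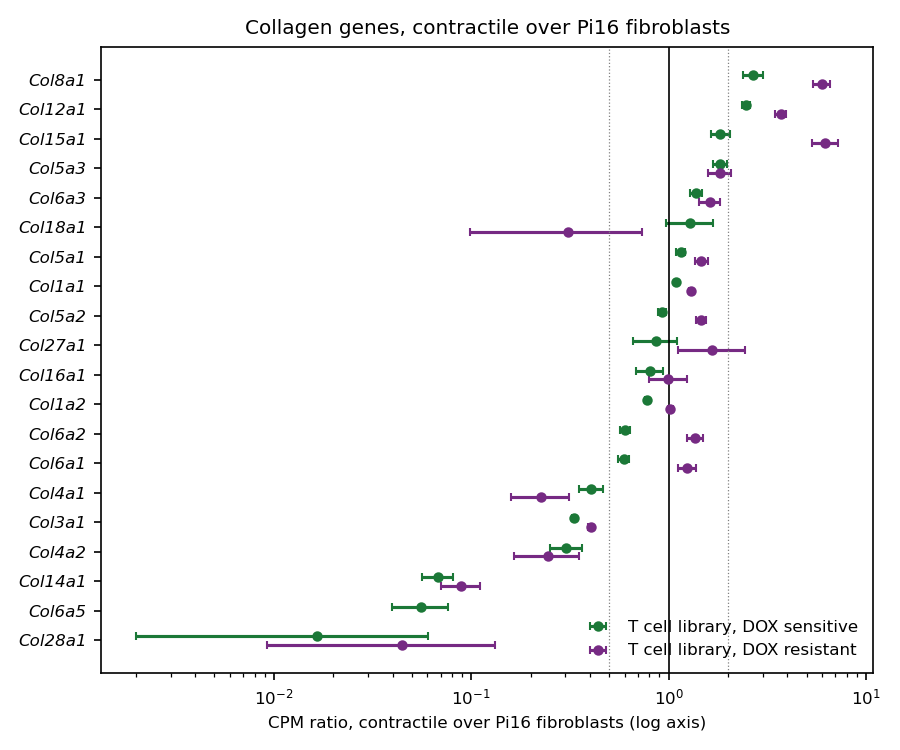
Ratio of the contractile to the Pi16 fibroblast level (log axis, bars are exact 95% intervals for counting error) for the 20 members past the UMI minimum in both T cell libraries. Points of Col12a1 and Col8a1 lie above 2 and those of Col3a1, Col4a1, Col4a2, Col14a1 and Col28a1 below 0.5 in both libraries, and Col6a5, with 0 UMIs in contractile fibroblasts of the resistant library, has a sensitive point only.

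Summed over all members, the contractile level was 0.698 times the Pi16 level in the sensitive library (0.691 to 0.705) and 0.898 times in the resistant one (0.885 to 0.911). The second of these did not keep its direction: it became 1.16 with each cell weighted equally, 1.12 with gates set after thinning cells to 5000 UMIs, and 1.08 with cells of both programs counted as contractile. Markers of pericytes and smooth muscle moved with the contractile class: Rgs5 was at 128 and 6.79 CPM there against 0.113 and 0.388 CPM in Pi16 fibroblasts, and Myh11 at 63.4 and 38.0 CPM against 0.113 and 0 CPM. A UMI of Rgs5, Myh11 or Higd1b was seen in 4 of 57 and 4 of 24 contractile fibroblasts. Without those cells the 8 members apart between the classes were the same 8, and the summed ratio in the resistant library was 0.979. The epithelial keratin Krt8 was at 59.1 and 1.36 CPM in contractile fibroblasts, and its part was not tested.

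Cells with neither program were set against each of the other classes. Cluster 12, which held 53 of 57 and 23 of 24 contractile fibroblasts, also held 46 of 103 and 9 of 20 cells with neither. Against contractile fibroblasts, 1 of 17 members was apart in both libraries: Col14a1 was 0.203 and 0.198 times as high in contractile cells, where 2.73% of all genes were lower. None of the 17 was higher, where 2.42% of all genes were. Against cells with neither, Pi16 fibroblasts were higher for 3 of 21 members, where 2.84% of all genes were: Col14a1 by 3.01 and 2.22 times, Col28a1 by 6.19 times in the sensitive library and at least 6.39-fold in the resistant one, where the 20 cells with neither had 0 UMIs (floor of 3 counts over the class), and Col6a5 by 4.12 and 2.59 times, the latter against 1 UMI (interval 0.454 to 103). They were lower for 2 of 21, where 1.75% of all genes were. These were Col12a1 (0.381 and 0.450 times) and Col7a1 (0.0393 and 0.00363 times). In the resistant library Col7a1 had 6 UMIs in Pi16 fibroblasts and 45 in cells with neither. It was thus just past the minimum there, and for the most part through the class where it was high. The resistant class with neither rests on few cells: of its 20 cells, 1 held 46.4% of the Col12a1, 51.1% of the Col7a1 and 73.3% of the Col15a1 UMIs.

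Genes that act on collagen were read beside the collagens from a list of 56 enzymes, partners, receptors and inducers. The list was chosen with earlier results of these data known, so its counts beside all genes are descriptive only. Of the 46 past the minimum, 12 were higher in contractile than in Pi16 fibroblasts in both libraries, where 3.97% of all genes were, and 6 lower, where 8.19% were. The prolyl hydroxylase subunits P4ha1 (2.74 and 3.42 times) and P4ha2 (3.46 and 3.23 times), which stabilise the helix, were among the former, as were the cross-linking enzyme genes Loxl2 (3.01 and 2.32 times), Loxl3 and Tgm2. So were the inducers Tgfb1 (4.99 and 10.5 times), Tgfb2, Tgfb3 and Ccn2 (10.9 and 8.25 times), the receptor genes Itgb1 and Ddr1, and Tnc, a matrix glycoprotein (16.8 and 118 times). The 6 lower genes were the proteoglycans Dcn (0.278 and 0.119 times) and Lum (0.207 and 0.243 times), which coat fibrils, the propeptide processing genes Pcolce2 (0.154 and 0.219 times) and Adamts2 (0.433 and 0.374 times), and the receptor genes Ddr2 and Tgfbr2. Against cells with neither, 1 of 40 list genes, Ccn2, was higher in contractile fibroblasts, where 2.42% of all genes were, and 3 (Dcn, Lum and Tgfbr2) were lower, where 2.73% were. In Pi16 fibroblasts 1 of 46, Pcolce2, was higher than in cells with neither, where 2.84% of all genes were, and 2 (Tnc and Tgfb1) were lower, where 1.75% were. Both counts of higher genes are near the share of all genes.

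Between the libraries, the summed collagen level of fibroblast-like cells was 1.11 times higher in the sensitive than in the resistant one (1.11 to 1.12), beside a median of 1.06 over all 11367 genes with at least 50 UMIs. Of the 27 members past that minimum, 23 were higher and 4 lower in the sensitive library, with a median ratio of 1.34. In Pi16 fibroblasts 21 of 25 members past the minimum were higher (median 1.33, beside 1.06 over all genes), in contractile fibroblasts 8 of 20 (0.929 beside 1.03) and in cells with neither 8 of 20 (0.924 beside 1.10). For the 50 genes of the collagen machinery list the median was 1.12, with 38 higher. At least 2-fold higher were 5 of 27 members, where 2.89% of all genes were, and at least 2-fold lower was 1, where 1.16% were.

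The 5 higher members were Col6a5, Col24a1, Col6a6, Col23a1 and Col7a1. Col6a5 was at 274 CPM (3729 UMIs) in sensitive and 9.80 CPM (106 UMIs) in resistant fibroblast-like cells, 28.0 times higher (23.1 to 34.3). It was seen in 421 of 843 and in 43 of 634 cells, beside 4 of 2063 and 0 of 1915 T or NK cells. Of its 3729 UMIs in the sensitive library, 2225 lay in cluster 15, described below, where the 11 resistant cells had 0. Col24a1 was at 10.4 and 1.76 CPM (5.91 times, 3.65 to 10.1), Col6a6 at 13.7 and 3.60 CPM (3.80 times, 2.68 to 5.51), Col23a1, a transmembrane collagen, at 9.13 and 3.60 CPM (2.53 times, 1.75 to 3.73) and Col7a1 at 27.2 and 11.6 CPM (2.36 times, 1.92 to 2.91). Of the last 4, Col7a1 had the most UMIs, 370 and 125. Short of 2-fold, the other type VI chains stood higher in the sensitive library too: Col6a1 1.83 times, Col6a2 1.68 times and Col6a3 1.64 times. The member that was lower was Col8a1, at 156 and 319 CPM (0.488 times, 0.462 to 0.515), which was not 2-fold apart with each cell weighted equally, as Col23a1 was not without clusters 15 and 22. Col14a1 (726 and 945 CPM, 0.769 times) and Col28a1 (46.5 and 66.8 CPM, 0.696 times) were lower short of 2-fold. The major chains hardly differed, at 1.11 times for Col1a1, 1.13 for Col1a2, 1.04 for Col3a1, 1.12 for Col5a2 and 1.06 for Col5a1.

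The other members past the minimum lay between these. Col16a1 was at 128 and 122 CPM (1.05 times), Col12a1 at 900 and 771 CPM (1.17 times), Col4a2 at 182 and 142 CPM (1.28 times) and Col4a1 at 257 and 193 CPM (1.33 times). Col15a1 was at 156 and 116 CPM (1.34 times), Col5a3 at 314 and 217 CPM (1.45 times), Col11a1 at 16.9 and 11.7 CPM (1.44 times), Col18a1 at 29.7 and 20.1 CPM (1.47 times), Col27a1 at 46.0 and 28.1 CPM (1.64 times) and Col8a2 at 5.23 and 2.77 CPM (1.88 times). Col4a5 was at 3.61 and 4.07 CPM (0.887 times, 0.578 to 1.36). Of these 11, only the interval of Col4a5 and that of Col16a1 (0.976 to 1.13) spanned 1.

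The libraries did not hold the same fibroblast clusters in the same shares. Cluster 15 held 146 cells in the sensitive library (17.3% of its fibroblast-like cells) and 11 in the resistant one (1.74%), and collagen took 5.17% of its UMIs in the former. Its leading genes were Cilp, Col6a5, C1qtnf3 and Mgp, and with 1 library per group such a cluster cannot be told apart from a trait of the library. Cluster 22 held 15 cells, all in the resistant library, with collagen at 0.912% of UMIs. Without these 2 clusters the summed ratio turned to 0.977 (0.973 to 0.982). Within the clusters that both libraries filled, the summed ratio was 0.999 in cluster 3 (345 and 276 cells, Pi16 fibroblasts for the most part), 0.973 in cluster 4 (210 and 239 cells, likewise) and 0.822 in cluster 12 (142 and 93 cells, which held most contractile fibroblasts). The gate make-up of cluster 12 differed between the libraries. It held 53 contractile, 16 Pi16, 27 both and 46 neither cells in the sensitive library, and 23, 14, 47 and 9 in the resistant one. Clusters 3, 4 and 12 did not show the summed excess, while cluster 15, with 146 and 11 cells, was at 1.53 (1.49 to 1.57). Single members differed within the former clusters: Col6a5 was 21.2 (15.1 to 30.7), 12.0 (9.23 to 15.9) and 13.1 (6.72 to 29.1) times higher in the sensitive library in clusters 3, 4 and 12. Col8a1 was 0.301, 0.133 and 0.317 times as high. Col6a6 was 3.69 and 4.95 times higher in clusters 3 and 4, Col24a1 9.89 times (4.04 to 31.4) and Col7a1 2.02 times in cluster 12. Col6a1 was 1.34, 1.69 and 1.05 times higher. Col23a1 was 1.29 times as high in cluster 12, short of its value over all cells. Col12a1 was 1.21, 0.300 and 0.797 times as high in clusters 3, 4 and 12, and Col11a1 0.103 times in cluster 12. In cluster 15, against 11 resistant cells, Col12a1 was 1.72 and Col11a1 2.19 times as high. Col1a1 was 0.980, 0.749 and 0.783 times as high and Col3a1 0.960, 1.05 and 0.818 times.

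**Figure D4:**
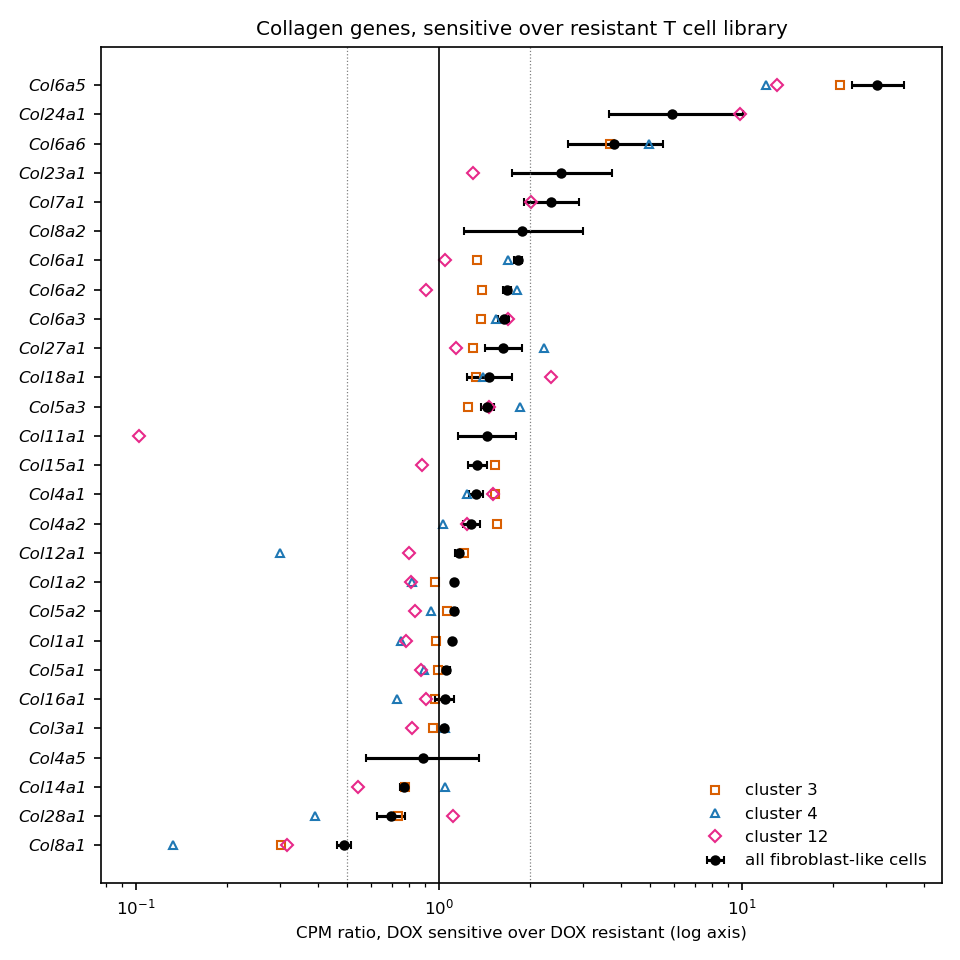
Ratio of the sensitive to the resistant T cell library (log axis) for the 27 members past the UMI minimum, with exact 95% intervals for counting error over all fibroblast-like cells (black) and the values within clusters 3, 4 and 12 (open symbols). Col6a5 stands apart at 28.0 over all cells and 12.0 to 21.2 within clusters, and Col8a1 lies below 1 in each.

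By gate, the summed ratio of the sensitive over the resistant library was 1.18 (1.18 to 1.19) in Pi16 fibroblasts, 1.20 (1.16 to 1.23) in cells with neither, where 12 of 20 members past the minimum were lower, and 0.919 (0.903 to 0.935) in contractile fibroblasts. The Pi16 class drew on different clusters in each library, with cluster 15 giving 115 of its 635 and 6 of its 535 cells. In Pi16 fibroblasts Col6a1 was 2.13 times (2.05 to 2.22), Col6a2 2.06 times (1.98 to 2.14), Col15a1 2.03 times and Col11a1 23.7 times (10.7 to 65.6) higher in the sensitive library, the last from 163 and 6 UMIs. Over all gates, 210 of the 230 Col11a1 UMIs of sensitive fibroblast-like cells lay in cluster 15. In contractile fibroblasts Col8a1 was 0.281 times as high (0.248 to 0.318) and Col24a1 had 51 and 0 UMIs. Of the machinery list, Tgm2 (2.01 times), Fmod (2.52 times) and Itga1 (3.22 times), a collagen receptor subunit, were at least 2-fold higher over all fibroblast-like cells of the sensitive library and Tll2 (0.278 times) lower, 3 and 1 of 50, where 2.89% and 1.16% of all genes were.

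Collagen UMIs outside fibroblasts moved with the library too. In T or NK cells the summed level was 2.37 times higher in the sensitive library (2.09 to 2.69) and in neutrophils 3.76 times (2.13 to 6.90). In macrophages it was 1.35 times (1.05 to 1.75), and in cancer cells 1.03 times (0.961 to 1.10). The members past 50 UMIs in T or NK cells were Col1a1 (15.8 and 6.50 CPM), Col1a2 (15.5 and 4.67 CPM), Col3a1 (17.2 and 7.05 CPM), Col5a2 (3.57 and 1.19 CPM) and Col27a1 (5.59 and 3.66 CPM). The first 4 were the most abundant fibrillar genes of the fibroblasts in the same droplet runs.

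Cancer-like cells numbered 108 (sensitive) and 145 (resistant) in the T cell libraries, with Epcam at 1298 and 1310 CPM. The make-up of their collagen UMIs was not that of fibroblasts. Below their fibroblast level were Col6a1 (14.9% and 25.4% of it), Col8a1 (66.3% and 26.0%), Col6a2 (6.25% and 8.89%) and Col16a1 (23.8% and 26.5%). Members that stood above it are given below. Col6a1 was at 130 and 121 CPM, Col8a1 at 103 and 83.1 CPM, Col18a1 (the multiplexin that carries endostatin) at 86.6 and 118 CPM and Col4a1 at 67.1 and 71.5 CPM. Col6a2 followed at 56.2 and 47.5 CPM, Col7a1 at 37.8 and 35.9 CPM, Col4a2 at 33.9 and 35.6 CPM, Col16a1 at 30.4 and 32.3 CPM and Col5a1 at 22.2 and 25.7 CPM. For the 10 members with at least 50 UMIs in cancer-like cells, sensitive over resistant ratios had a median of 1.00, with 5 above and 5 below 1, beside 1.06 over 7869 genes. Col14a1 and Col6a5 had 0 UMIs there, and Col3a1 had 8 and 5.

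Of the basement membrane network and zone genes, some stood above and some below the level of fibroblast-like cells. Col4a1 was at 26.1% and 37.1% of its fibroblast level, Col4a2 at 18.6% and 25.1%, and Col15a1 had 1 and 0 UMIs. Col18a1 was 2.92 (2.47 to 3.45) and 5.86 (4.94 to 6.96) times higher in cancer-like cells, Col4a5 4.98 and 3.16 times (from 46 and 39 UMIs), and Col7a1, of the anchoring fibril, 1.39 (1.10 to 1.74) and 3.11 (2.38 to 4.05) times. Col4a6, the neighbour of Col4a5 on the X chromosome, had 30 and 13 UMIs in cancer-like cells against 4 and 0 in fibroblast-like cells. In the resistant library this is at least 15.5-fold higher (floor of 3 counts over the class). Some chains that assemble together were seen together in cancer-like cells, with 172 and 217 UMIs of Col4a1 beside 87 and 108 of Col4a2, and 332 and 367 of Col6a1 beside 144 and 144 of Col6a2. Others were not: Col6a3 had 1 UMI in each library beside 332 and 367 of Col6a1, and Col5a2 had 1 and 0 beside 57 and 78 of Col5a1. In fibroblast-like cells there were 0.533 and 0.594 Col6a3 UMIs for each of Col6a1. In the resistant library 1 cancer cell held 33.0% of the Col6a1 and 33.3% of the Col6a2 UMIs. With cells thinned to 1000 UMIs, any member was seen in 46.3% and 38.9% of cancer-like cells, against 8.69% and 3.56% of T or NK cells. Unthinned, these were 89.8% and 88.9% at a median of 20604.5 and 21272 UMIs, against 24.8% and 14.5% at 3938 and 4525 UMIs.

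**Figure D5:**
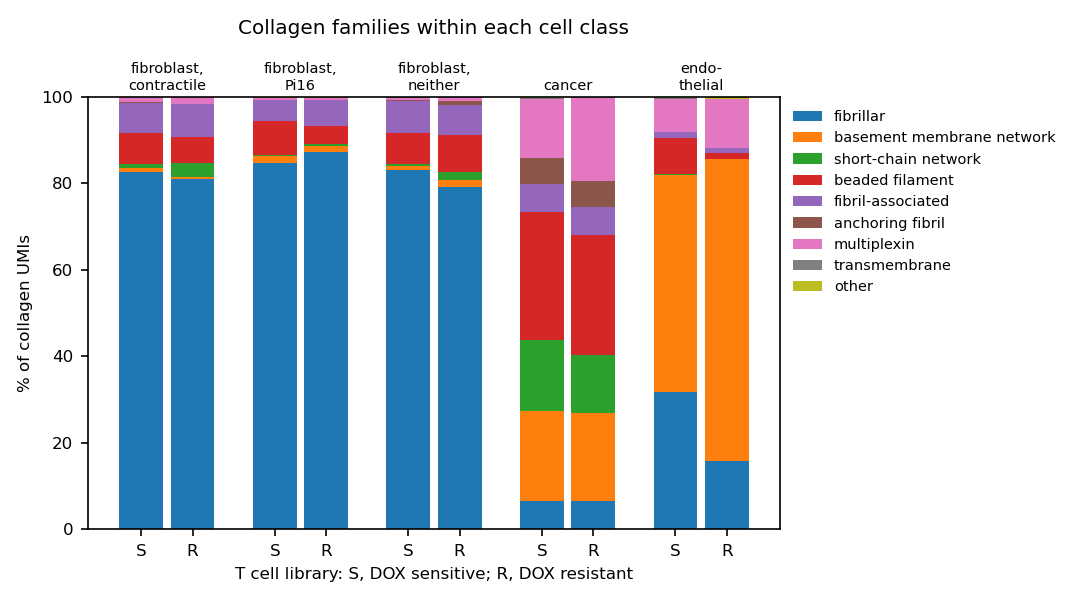
Make-up of the collagen UMIs by family (percent, stacked to 100) in 5 cell classes of the sensitive and resistant T cell libraries. Fibrillar genes take 79.2% to 87.3% in the fibroblast classes, 6.46% and 6.42% in cancer-like cells, where beaded filament genes take 29.7% and 27.6%, and 31.8% and 15.7% in the 9 and 8 endothelial cells, where basement membrane genes take 50.2% and 70.1% and 1 cell holds 62.7% and 96.5% of the Col3a1 UMIs.

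Macrophage-like cells numbered 218 and 198, with Adgre1 at 162 and 84.2 CPM, and held 149 and 106 collagen UMIs. Col14a1 was their leading member, with 42 UMIs in 24 cells and 30 UMIs in 22 cells (17.3 and 12.8 CPM). That was 2.38% (1.71 to 3.21) and 1.36% (0.915 to 1.94) of its fibroblast level. Col1a1 in the same cells was at 0.132% and 0.0571% of its fibroblast level and Col3a1 at 0.0779% and 0.0320%. In T or NK cells Col14a1 was at 0.279% and 0.0871%, beside 0.212% and 0.0965% for Col1a1. The source of the Col14a1 UMIs was not tested. With cells thinned to 1000 UMIs, Col14a1 was left in 3 of 218 and 1 of 198 macrophage-like cells and in 1 of 2037 and 0 of 1910 T or NK cells. Col27a1 had 58 UMIs in 48 T or NK cells and 40 UMIs in 35, at 12.2% (9.12 to 15.9) and 13.0% (9.12 to 18.2) of its fibroblast level.

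The whole-tumor libraries held few fibroblast-like cells, 17 in the library labelled control, 5 in sensitive and 19 in resistant, and were not set against the T cell libraries. Collagen made up 3.76% of their UMIs in control (5658 UMIs), 0.0353% in sensitive (5 UMIs) and 2.33% in resistant (3166 UMIs). The 5 cells of the sensitive library had 0 UMIs of Pdgfra and of Dcn, so their name goes against its defining markers and their levels are not read as those of fibroblasts. The same holds for the 9 control cells under 5000 UMIs, with 0 UMIs of both, and the 13 resistant ones had 0 UMIs of Pdgfra and 20 of Dcn. In control, the 8 cells with at least 5000 UMIs held 4.27% collagen and the 9 shallower ones 0.0759%. In resistant, 6 such cells held 2.94% and 13 held 0.333%. Of the 44 members, 29 had a UMI in a kept whole-tumor cell.

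Levels over all cells of the class therefore include cells in which the name is in doubt. The 10 members highest in fibroblast-like cells of the T cell libraries were read in control and resistant. Col3a1 was at 14998 and 9224 CPM, Col1a2 at 8340 and 6294 CPM and Col1a1 at 8213 and 4292 CPM. Col5a2 was at 1734 and 810 CPM, Col12a1 at 964 and 390 CPM, Col5a1 at 631 and 486 CPM and Col14a1 at 598 and 331 CPM. Col6a1 was at 459 and 184 CPM, Col6a2 at 352 and 250 CPM and Col6a3 at 339 and 258 CPM. These values are given side by side with no count read from them, since 9 of 17 and 13 of 19 cells were shallow. The resistant values rest on few cells: 1 cell held 60.6% of the Col1a2, 48.5% of the Col1a1 and 57.3% of the Col5a2 UMIs, and these genes were seen in 5 of 19 cells. In whole-tumor cancer-like cells (34 in control, 41 in resistant), Col7a1 had 41 and 107 UMIs (69.4 and 122 CPM), Col8a1 47 and 88, Col4a1 56 and 65, Col18a1 53 and 43 and Col6a1 39 and 20. The 3 cancer-like cells of the sensitive library held 33 collagen UMIs. In resistant macrophage-like cells, Col14a1 made up 8 of 25 collagen UMIs, from 6 cells.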

How the data were processed

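Reads of the 10x 3′ libraries had been aligned by the authors to mm10 with Cell Ranger (3.0.1 for whole tumor, 6.0.0 for T cells), and they deposited raw UMI counts per gene and cell barcode. A barcode of the T cell libraries needed 500 detected genes and a mitochondrial share of 10% or less, one of whole tumor (where mitochondrial UMIs were 0) 200 genes, and 101 and 84 putative doublets were removed from the sensitive and resistant T cell libraries, none from whole tumor. Each set was clustered with scanpy 1.11.5 and Leiden (resolution 1, 2000 variable genes without the members, 30 components, 15 neighbors). A cluster was named when at least 3 marker genes of a type were on, so the names were rebuilt here. UMIs of a class were summed and divided by its total. Intervals came from SciPy 1.17.1. Ratio intervals were tried on simulated Poisson counts, the model they assume, so this does not show how they cover counts uneven between cells. No test was possible with 1 library per group, and T cell and whole-tumor libraries, with different feature lists, were never compared. Named genes were members with at least 50 UMIs in fibroblast-like cells, members apart in a comparison, members highest outside fibroblasts, and apart genes of the machinery list. Members and lists were chosen with earlier results of these data known. Sequences came from GRCm38 with GENCODE models, and promoters from RefSeq.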

Additional observations from a re-analysis of the deposited data

Results flagged for a closer look

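For 3 of the 20 members past the UMI minimum, the contractile over Pi16 fibroblast ratio lay on opposite sides of 1 in the 2 T cell libraries, each with an interval for counting error that excluded 1. Col11a1 lay on opposite sides too, with 10 UMIs in contractile and 163 in Pi16 fibroblasts (sensitive) and 38 and 6 (resistant). It was under the minimum in the resistant library. Col5a2 was at 0.930 (sensitive) and 1.46 (resistant), Col6a1 at 0.593 and 1.24, and Col6a2 at 0.603 and 1.37. With 1 library per group the difference between libraries was not tested. The contractile levels of Col6a1 were 551 and 541 CPM and those of Col6a2 594 and 655 CPM, while their Pi16 levels were 929 and 435 CPM and 985 and 479 CPM. Col5a2 was at 1200 and 1525 CPM in contractile and 1290 and 1043 CPM in Pi16 fibroblasts. Of the Pi16 fibroblasts, 115 of 635 in the sensitive library and 6 of 535 in the resistant one belonged to cluster 15, and the part of this in the values was not tested.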

How the results depend on the processing

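The summed sensitive over resistant ratio of fibroblast-like cells (1.11) was 1.12 with doublets kept, 1.14 with cells weighted equally, 1.05 divided by the median gene ratio, 1.12 without the barcodes both libraries hold, 1.11 without cells with Rgs5, Myh11 or Higd1b, and 0.977 without clusters 15 and 22. With a mitochondrial limit of 20% it was 1.12, and the 6 members apart between the libraries were the same 6. The contractile over Pi16 ratio in the sensitive library (0.698) was 0.637 with gates of 1 UMI, 0.845 with gates after thinning, 0.690 per non-member UMI, 0.689 with cells weighted equally, 0.895 with cells of both programs included, and 0.796 without clusters 15 and 22. In the resistant library (0.898) it was 1.12 with gates after thinning, 1.16 with cells weighted equally, 1.08 with cells of both programs included, 0.979 without cells with Rgs5, Myh11 or Higd1b, and 0.879 without clusters 15 and 22. The cause of these shifts was not tested. Members 2-fold apart between the libraries (6) numbered 16 with a minimum of 1 UMI (14 higher, 2 lower) and 4 with a minimum of 200, without Col23a1 and Col24a1. With cells weighted equally they numbered 7, all higher, 5 of them among the 6 (Col8a1 was lost), and without clusters 15 and 22 they numbered 6, of which 5 were shared (Col23a1 was lost). Members apart between contractile and Pi16 fibroblasts (8) numbered 6 to 9 over all alternatives, with 6 to 8 of the 8 shared. The calls lost were Col3a1 (gates after thinning, cells weighted equally, cells of both programs included), Col4a1 (cells weighted equally) and Col6a5 (minimum of 200). Sub-clusters gave no value as an alternative to the gates, since none was contractile by majority. Alternatives on cells of both programs, on the marked pericyte or smooth muscle cells, on shared barcodes and on the 2 clusters were chosen after seeing the data. No paired analysis was possible because each group had 1 library. Depth limits the scarce members: the contractile class of the resistant library held 24 cells and 736326 UMIs, so the exact upper limit of a count of 0 there is 5.01 CPM and the floor of 3 counts is 4.07 CPM.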
